A study of Homo sapiens with 10 samples.

Results

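The zinc finger genes described here are the protein-coding genes of human chromosome 19 whose symbol is ZNF followed by a number. They were taken by chromosome, gene type and symbol, with no use of their measured values, and 161 of the 18034 gene IDs in the tables met the rule. Their mRNA was measured by poly(A) RNA sequencing in HCT116, an established human colorectal carcinoma line, in 5 groups of 2 libraries, in a study of CDK9 methylation by DOT1L in double-strand break repair. EPZ cells received EPZ-5676, an inhibitor of the histone H3 lysine methyltransferase DOT1L, at 10 µM for 72 h, and DMSO cells received DMSO; both carry a control genotype. The other 3 groups all carry an shRNA knockdown of CDK9, the kinase of the transcription elongation factor P-TEFb, and no drug. Their titles add K56A, WT or EV, read here as CDK9 changed at lysine 56, as wild-type CDK9 and as neither of these, since the labels do not expand EV. The number of clones behind each knockdown line and the promoter of each construct are not given in the labels. Nothing in them tells whether the replicates were grown apart, and the p-values cover the spread between libraries alone, which may be technical.

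Most genes of the family encode proteins with an N-terminal KRAB domain and a C-terminal row of C2H2 zinc fingers. The fingers read a DNA sequence, and the KRAB domain recruits TRIM28, which brings the methyltransferase SETDB1, heterochromatin proteins and histone deacetylases to silence the site. Many bind retrotransposons, and the genes themselves stand in tandem clusters on chromosome 19 that grew by duplication. Their mRNAs are known for low abundance and rapid decay, and the level of a short-lived mRNA follows a change in its synthesis sooner than that of a stable one.

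The members lie along both arms of the chromosome. Split wherever neighbours stood more than 1 Mb apart, they formed 18 clusters, the largest with 34 members between ZNF264 and ZNF446 at the end of the long arm. Their transcripts had a median GC content of 43.8% and a median length of 2786 nt, whereas the other 864 protein-coding genes of chromosome 19 had medians of 60.7% and 1846 nt. A total of 127 members had a GC content under 50%, and 34 had at least 50%. In 41 members more than 10% of all 50-base stretches also occurred in another gene, and in 8 of them more than 50% did, so reads of these genes can be split between copies and their values are uncertain.

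The start regions carried short sequences in common. RefSeq gives 169 start sites for 143 of the member symbols in GRCh38.p14, and the window examined runs from 250 bases before to 50 bases after each site. On either strand, CCGGAAG, the core letters of an ETS-type site, stood in 42.6% of these windows, against 16.0% of the windows of all protein-coding genes in the tables and 10.3% of all RefSeq windows. The letters TTCCCAG stood in 31.4% of member windows, against 10.7% and 10.8%, and ACTACA followed 1 base later by the first 6 of these letters in 10.7%, against 1.09% and 0.669%. The sequence CCAAT was found in 52.7% of member windows, against 34.8% and 34.6%, and GGGCGG in 63.9%, against 65.3% and 45.0%. TATAAA was present in 1.78% of member windows, against 6.54% and 11.5%. In the 251 windows of ZNF genes of other chromosomes, CCGGAAG stood in 30.3%, TTCCCAG in 17.1% and the form with ACTACA in 3.98%. CCAAT stood in 37.5% of them, GGGCGG in 59.4% and TATAAA in 5.18%. Shares of CCGGAAG and TTCCCAG above those of all protein-coding genes were thus not particular to chromosome 19. TTCCCAG, its longer form and the TGACGTCA sequences described below were picked after reading the sequences. A match is a description of the letters and not evidence of a bound site.

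The windows of 8 members are printed 5′ to 3′ on the gene's strand, because the values below turn on these genes. ZNF302 and ZNF224 had the smallest p-values among members higher with EPZ and with wild-type CDK9, ZNF146 is the most abundant member, ZNF580 comes from the GC-rich cluster, and ZNF266, ZNF121, ZNF561 and ZNF562 are neighbours in 1 cluster that includes several of the most abundant members. Capitals mark, on either strand, each CCGGAAG, each match to TTCCCAG, and the longest run of bases that the windows of the 4 neighbours share, GCGGAAGTGACGTCA, which contains the cyclic AMP response element TGACGTCA.
ZNF302 (chr19:34677428-34677727, plus strand): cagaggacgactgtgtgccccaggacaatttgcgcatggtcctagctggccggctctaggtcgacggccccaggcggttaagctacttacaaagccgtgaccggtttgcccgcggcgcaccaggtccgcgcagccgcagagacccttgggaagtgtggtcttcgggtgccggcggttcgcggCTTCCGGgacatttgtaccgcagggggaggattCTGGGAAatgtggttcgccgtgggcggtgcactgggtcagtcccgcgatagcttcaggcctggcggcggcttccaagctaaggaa
ZNF224 (chr19:44094111-44094410, plus strand): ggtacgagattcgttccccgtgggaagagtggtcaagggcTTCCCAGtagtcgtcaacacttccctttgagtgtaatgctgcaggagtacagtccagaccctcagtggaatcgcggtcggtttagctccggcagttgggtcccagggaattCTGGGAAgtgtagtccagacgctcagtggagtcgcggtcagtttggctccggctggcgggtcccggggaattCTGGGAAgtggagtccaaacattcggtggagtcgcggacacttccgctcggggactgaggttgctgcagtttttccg
ZNF146 (chr19:36214856-36215155, plus strand): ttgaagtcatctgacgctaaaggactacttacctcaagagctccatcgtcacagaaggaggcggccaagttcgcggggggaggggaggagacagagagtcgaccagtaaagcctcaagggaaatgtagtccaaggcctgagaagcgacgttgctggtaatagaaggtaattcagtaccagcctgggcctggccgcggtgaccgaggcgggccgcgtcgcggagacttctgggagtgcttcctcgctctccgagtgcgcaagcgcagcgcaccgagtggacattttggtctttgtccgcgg
ZNF580 (chr19:55640752-55641051, plus strand): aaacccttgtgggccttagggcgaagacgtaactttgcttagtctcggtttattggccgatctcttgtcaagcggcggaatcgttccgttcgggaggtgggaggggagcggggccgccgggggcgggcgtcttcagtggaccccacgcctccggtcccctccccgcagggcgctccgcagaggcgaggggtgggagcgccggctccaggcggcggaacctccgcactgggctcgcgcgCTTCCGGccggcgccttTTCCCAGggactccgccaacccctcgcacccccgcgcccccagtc
ZNF266 (chr19:9435524-9435823, minus strand): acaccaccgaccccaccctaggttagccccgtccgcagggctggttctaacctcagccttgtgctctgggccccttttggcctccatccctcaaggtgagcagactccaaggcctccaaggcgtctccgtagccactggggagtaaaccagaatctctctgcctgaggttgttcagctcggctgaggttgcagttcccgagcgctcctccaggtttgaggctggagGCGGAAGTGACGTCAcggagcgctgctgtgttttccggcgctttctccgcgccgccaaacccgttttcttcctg
ZNF121 (chr19:9584455-9584754, minus strand): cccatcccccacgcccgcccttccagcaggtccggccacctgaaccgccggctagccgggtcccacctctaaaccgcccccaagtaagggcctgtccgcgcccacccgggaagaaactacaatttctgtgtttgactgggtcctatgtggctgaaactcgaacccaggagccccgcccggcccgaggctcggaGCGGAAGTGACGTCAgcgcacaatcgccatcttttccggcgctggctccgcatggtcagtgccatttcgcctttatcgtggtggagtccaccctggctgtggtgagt
ZNF561 (chr19:9621183-9621482, minus strand): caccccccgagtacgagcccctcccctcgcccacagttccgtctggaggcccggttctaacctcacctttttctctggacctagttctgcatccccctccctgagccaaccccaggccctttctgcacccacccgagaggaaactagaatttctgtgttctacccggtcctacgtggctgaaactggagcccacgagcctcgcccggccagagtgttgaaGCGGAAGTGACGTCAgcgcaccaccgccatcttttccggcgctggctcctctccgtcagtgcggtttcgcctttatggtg
ZNF562 (chr19:9675051-9675350, minus strand): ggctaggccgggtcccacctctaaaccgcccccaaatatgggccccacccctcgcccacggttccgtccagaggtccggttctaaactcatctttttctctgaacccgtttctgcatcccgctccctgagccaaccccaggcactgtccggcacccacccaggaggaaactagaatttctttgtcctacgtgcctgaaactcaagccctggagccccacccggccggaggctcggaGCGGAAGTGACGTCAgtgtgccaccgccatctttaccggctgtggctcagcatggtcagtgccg
ZNF224 held TTCCCAG 3 times, with no CCGGAAG. ZNF302 and ZNF580 held each of these once, and ZNF146 held none of the marked sequences. The run shared by ZNF266, ZNF121, ZNF561 and ZNF562 occurred in no other member window, and in 11 of all 35116 RefSeq windows, these 4 included. The response element alone was in 5.92% of member windows, against 2.66% of the windows of protein-coding genes in the tables. ZNF genes of other chromosomes had it in 3.19% of their windows.

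Taken as a block, the family was weakly expressed in every group. The median member had 3.26 FPKM in EPZ, 3.11 in DMSO, 3.26 in K56A, 3.19 in WT and 3.13 in EV. FPKM, fragments scaled to transcript length and library size, allow genes of unlike length to be compared. The EPZ and DMSO medians leave out 8 members that are not listed for the inhibitor libraries, so they cover fewer members than the knockdown medians. The median over all genes tested lay between 12.1 and 12.8 FPKM in the same groups, and that over the members tested between 3.43 and 3.76. Across the 10 libraries, 23 members averaged under 1 FPKM, 88 between 1 and 5, 36 between 5 and 10, and 14 at least 10. Summed over members, the level was 712 ± 36.3 FPKM in EPZ and 698 ± 53.1 in DMSO (SD, n = 2 each). The knockdown groups had sums of 799 ± 6.43 in K56A, 792 ± 0.822 in WT and 766 ± 10.1 in EV (SD, n = 2 each). Single EPZ libraries summed to 687 and 738 FPKM and DMSO libraries to 661 and 736, so these groups overlapped. Libraries of K56A had 794 and 804, of WT 792 and 791 and of EV 774 and 759, so both EV libraries were the lowest of the 6. No test was made between the inhibitor and the knockdown libraries, whose tables were normalized apart. In bulk RNA, fewer expressing cells and less RNA per cell cannot be told apart.

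The most abundant members held a minor part of the level of the block. The 10 most abundant members held 24.6% of the summed level in DMSO and 26.3% in EV. ZNF146, which encodes a protein of zinc fingers with no KRAB domain and is known to be overexpressed in colorectal and pancreatic tumours, had the highest mean in every group. It had 53.4 and 57.7 FPKM in EPZ, 47.1 and 54.3 in DMSO, 40.6 and 41.6 in K56A, 42.7 and 43.0 in WT and 35.8 and 39.3 in EV. In EV its replicate 1 was level with that of ZNF121, so the order of these genes there is within the spread. By the deposited coordinates in GRCh38, ZNF146 spans bases 36214602 to 36238771 on the plus strand, ZNF224 spans 44094339 to 44109886 on the plus strand and ZNF121 spans 9560329 to 9584504 on the minus strand. ZNF121 and ZNF83 followed in the knockdown groups, at 34.1 ± 2.32 and 28.9 ± 1.91 FPKM in EV, beside 10.3 ± 2.07 and 12.1 ± 1.57 in DMSO (SD, n = 2). ZNF428 followed ZNF146 in the inhibitor groups, at 18.5 ± 2.44 FPKM in EPZ and 22.2 ± 0.581 in DMSO. From ZNF317 to ZNF561, the means over 10 libraries lay between 13.4 and 15.6 FPKM, and neighbours in that order differed by less than their spread between libraries.

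**Figure D1:**
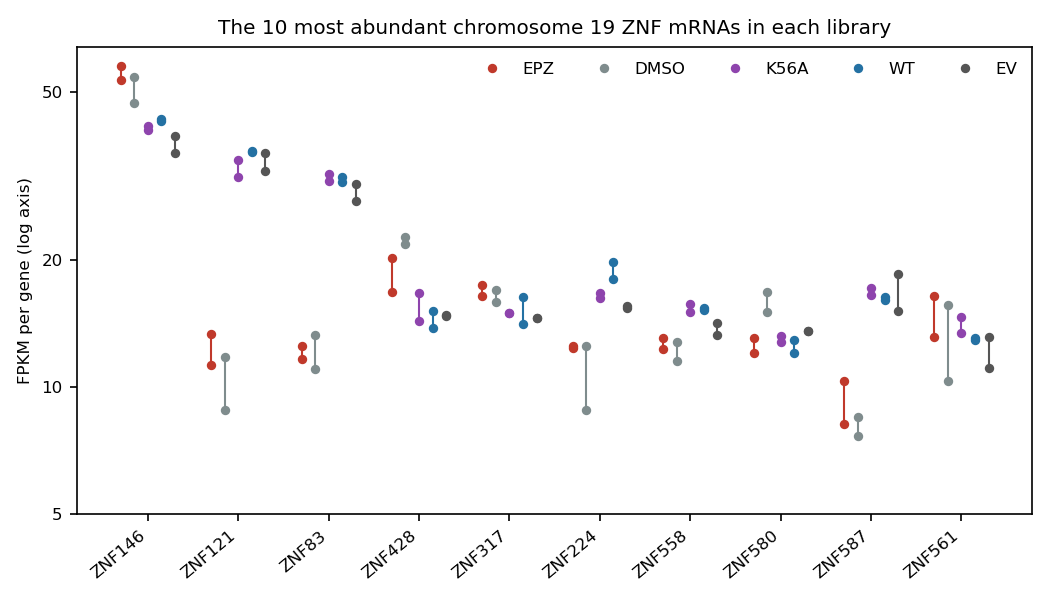
FPKM per gene (log axis) of the 10 most abundant chromosome 19 ZNF genes, with 1 point per library and a line joining the 2 libraries of a group. ZNF146 lies at the top in all groups, and ZNF121 and ZNF83 stand near 30 FPKM in the knockdown libraries and between 8.83 and 13.3 FPKM in the inhibitor libraries.

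Some members are known for a specific role and are given here for that role, outside the rule for named genes. ZNF274 recruits TRIM28 and SETDB1 to the 3′ ends of zinc finger genes themselves. It had 5.07 and 5.84 FPKM in EPZ, 3.77 and 5.197 in DMSO, 7.07 and 7.54 in K56A, 7.07 and 7.50 in WT and 7.31 and 7.03 in EV. ZNF91, a silencer of SVA retrotransposons, had 2.27 and 2.89 FPKM in EPZ, 2.40 and 2.96 in DMSO, 3.32 and 3.74 in K56A, 3.46 and 3.49 in WT and 3.49 and 3.26 in EV. ZNF473, a component of the machinery that matures histone mRNA 3′ ends, had 6.07 and 6.75 FPKM in EPZ and 4.88 and 6.67 in DMSO. ZNF350, also called ZBRK1, is a partner of BRCA1 that represses GADD45A, and it had 1.40 and 1.303 FPKM in EPZ and 1.58 and 1.42 in DMSO. It lay between 0.455 and 0.785 FPKM in the knockdown libraries and was not tested there. With EPZ the log2 fold changes of the 4 genes ran from -0.11 for ZNF350 to 0.27 for ZNF274, and none passed in limma in a comparison in which it was tested.

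The first comparison asked how the block responded to DOT1L inhibition, in cells with no CDK9 knockdown. DOT1L itself had 10.7 and 10.4 FPKM in EPZ and 12.6 and 12.5 in DMSO. Of the 161 members, 140 could be tested on log2(FPKM + 0.5), 13 reached 1 FPKM in fewer than 2 libraries and 8 were not listed in the table, among them ZNF763 and ZNF850. No member passed an adjusted p of 0.05 in limma, where 0.00762% of the 13130 genes tested did. The smallest adjusted p of a member was 0.756. At an unadjusted p under 0.05, 3 members were higher, where 2.99% of all genes were, and 2 lower, where 2.83% were. Together they made 3.57% of members, against 5.83% of all genes. Both EPZ libraries lay above both DMSO libraries in 20 members (14.3%, against 18.6% of all genes) and below them in 22 (15.7%, against 18.8%). The median log2 fold change was 0.03 over members and 0.00 over all genes. The 95% interval lay within a 2-fold change either way in 132 of the 140 members, and within 1.5-fold in 51, so smaller shifts could not be seen in most of them.

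Single members showed small differences with EPZ. ZNF302 had 4.86 and 5.58 FPKM in EPZ, against 2.52 and 4.05 in DMSO, a log2 fold change of 0.62 ± 0.23 (SE) with an adjusted p of 0.756 in limma. ZNF225, a neighbour and relative of ZNF224, had 2.51 and 2.54 FPKM in EPZ, against 1.26 and 1.71 in DMSO. ZNF547 had 1.60 and 1.88 FPKM in EPZ, against 0.827 and 1.03 in DMSO. In all 3 genes both EPZ libraries were above both DMSO libraries, and DMSO replicate 1 was the lowest library. ZNF776 and ZNF888 completed the 5 smallest p-values among higher members, at log2 fold changes of 0.40 and 0.47. ZNF544 had 9.88 and 9.74 FPKM in EPZ, against 13.4 and 12.3 in DMSO, a log2 fold change of -0.37 ± 0.13 (SE). ZNF580 had 13.0 and 12.03 FPKM in EPZ, against 15.1 and 16.7 in DMSO. For these genes as well as for ZNF175, a gene known as a repressor of the HIV-1 promoter, ZNF584 and ZNF428, both EPZ libraries were below both DMSO libraries. Their log2 fold changes ran from -0.37 to -0.26, and none passed. With the GC and length trends removed ZNF580 had -0.13 and ZNF428 -0.11, and from protein-coding transcripts alone ZNF175 had -0.18 and ZNF776 0.13.

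DMSO replicate 1 stood apart from the other inhibitor libraries over the family. Between the EPZ libraries, replicate 2 was higher than replicate 1 in 91 of 140 members, with a median difference of 0.11 (log2). Between the DMSO libraries, replicate 2 was higher in 100, with a median of 0.21. The medians over all genes were 0.01 in EPZ and 0.00 in DMSO, and replicate 2 was higher in 51.6% and 50.1% of all genes. Leaving out DMSO replicate 2, so that the low DMSO library alone stood for its group, 11 members passed, all higher in EPZ. That was 7.86% of members, against 12.1% of all genes in the same fit. They were ZNF296, ZNF302, ZNF875, ZNF559, ZNF225, ZNF180, ZNF567, ZNF561, ZNF766, ZNF181 and ZNF554. Without DMSO replicate 1 no member passed, where 0.579% of all genes did, and the member median was -0.06, against 0.13 without DMSO replicate 2. The direction of the block with EPZ therefore depended on which DMSO library was kept. ZNF296 shows the gap most plainly, since it was listed at 0 in DMSO replicate 1, at 4.15 FPKM in DMSO replicate 2 and at 3.44 and 3.08 FPKM in EPZ.

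The second comparison set WT beside EV, both in the CDK9 knockdown. CDK9 had 3060 and 2976 FPKM in WT, against 16.4 and 19.4 in EV, and DOT1L had 578 and 568 in WT, against 324 and 343 in EV. The difference in CDK9 and the difference in DOT1L cannot be told apart. Of the members, 102 could be tested, 43 had more than 5% of their level in transcripts listed in only 1 of the knockdown tables, and 16 were below the filter. No member passed in limma, where 0.536% of 11566 genes did. At an unadjusted p under 0.05, 9 members were higher (8.82%, against 6.01% of all genes) and 2 lower (1.96%, against 7.52%). Together they made 10.8% of members, against 13.5% of all genes. Both WT libraries lay above both EV libraries in 38 members, or 37.3%, against 22.6% of all genes, and below them in 15, or 14.7%, against 20.9%. The median log2 fold change was 0.05 over members and 0.01 over all genes. Above 0 were 67 of 102 members (65.7%), against 52.6% of all genes and 61.25% of ZNF genes of other chromosomes. The 160 tested ZNF genes of other chromosomes had a median of 0.04, so the median of the chromosome 19 genes stood beside that of the rest of the ZNF genes.

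ZNF224, a KRAB repressor first described at the aldolase A promoter, had the smallest adjusted p among members. It had 19.8 and 18.0 FPKM in WT, against 15.5 and 15.3 in EV, a log2 fold change of 0.28 ± 0.07 (SE) with an adjusted p of 0.119 in limma. ZNF146 had 42.7 and 43.0 FPKM in WT, against 35.8 and 39.3 in EV, a log2 fold change of 0.19 ± 0.06 (SE) with an adjusted p of 0.205. In both genes both WT libraries were above both EV libraries. ZNF302 had 8.85 and 8.75 FPKM in WT, against 7.32 and 7.34 in EV. ZNF576 had 3.49 and 2.79 FPKM in WT, against 1.94 and 2.39 in EV. ZNF266 had 11.2 and 11.5 FPKM in WT, against 9.76 and 9.77 in EV. These 3 also lay wholly above EV, at log2 fold changes of 0.25, 0.45 and 0.21, and none passed. In the other direction, ZNF611 had 3.55 and 3.17 FPKM in WT, against 5.06 and 4.34 in EV, a log2 fold change of -0.43 ± 0.15 (SE). ZNF865, ZNF226, ZNF324B and ZNF57 followed, between -0.29 and -0.20, and in each both WT libraries were below both EV libraries. The margin was narrow in ZNF57, with 2.96 and 4.03 FPKM in WT, against 4.51 and 4.08 in EV, and its value of -0.28 was -0.08 without WT replicate 1 and -0.47 without WT replicate 2. Without EV replicate 1, ZNF146 had 0.12 and ZNF226 -0.10, and from protein-coding transcripts alone ZNF611 had -0.17.

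The third comparison set K56A, with lysine 56 of CDK9 changed, beside EV, and it shares the EV libraries with the second. CDK9 had 2611 and 2500 FPKM in K56A, against 16.4 and 19.4 in EV, and DOT1L had 733 and 703 in K56A, against 324 and 343 in EV. Here too the differences in CDK9 and in DOT1L cannot be told apart. No member passed in limma, where 0.787% of all genes did, and 10 members (9.80%) had an unadjusted p under 0.05, against 15.1% of all genes. Of these, 7 were higher (6.86%, against 8.53% of all genes) and 3 lower (2.94%, against 6.59%). Both K56A libraries lay above both EV libraries in 35 members, or 34.3%, against 27.6% of all genes, and below them in 13, or 12.7%, against 17.9%. The median log2 fold change was 0.06 over members and 0.03 over all genes. The interval of every tested member lay within a 2-fold change.

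ZNF576 had the smallest adjusted p, with 3.13 and 3.73 FPKM in K56A, against 1.94 and 2.39 in EV, a log2 fold change of 0.56 ± 0.16 (SE) and an adjusted p of 0.168 in limma. ZNF44 had 4.34 and 4.499 FPKM in K56A, against 3.601 and 3.44 in EV. ZNF266 had 10.8 and 11.9 FPKM in K56A, against 9.76 and 9.77 in EV. ZNF675, a known inhibitor of TRAF6 signalling, had 1.40 and 1.79 FPKM in K56A, against 1.10 and 0.933 in EV. All 4 were above EV in both libraries, as was ZNF324. Its value is uncertain, because 33.5% of its 50-base stretches also occur in other genes, the most in ZNF446. ZNF562, which shares the marked promoter run with ZNF266, had 8.98 and 8.73 FPKM in K56A, against 10.1 and 11.3 in EV, a log2 fold change of -0.26 ± 0.09 (SE). ZNF649, a KRAB repressor known to act on serum response elements, had 2.17 and 2.33 FPKM in K56A, against 3.73 and 2.75 in EV. ZNF460, ZNF611 and ZNF565 had log2 fold changes of -0.27, -0.32 and -0.27. From protein-coding transcripts alone, ZNF649 had -0.07, where the main value was -0.43, and ZNF611 had -0.15. Leaving out 1 library moved ZNF611 between -0.50 and -0.14, ZNF649 to -0.24 without EV replicate 1 and ZNF324 to 0.22 without K56A replicate 2.

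The fourth comparison set the changed CDK9 beside the wild-type one. CDK9 had 2611 and 2500 FPKM in K56A, against 3060 and 2976 in WT, and DOT1L had 733 and 703 in K56A, against 578 and 568 in WT. The change at lysine 56 and these differences in level cannot be told apart. No member passed in limma, where 0.0605% of all genes did, and 6 members (5.88%) had an unadjusted p under 0.05, against 13% of all genes. Of these, 2 were higher (1.96%, against 8.7% of all genes) and 4 lower (3.92%, against 4.31%). Both K56A libraries lay above both WT libraries in 23 members, or 22.5%, against 26% of all genes, and below them in 25, or 24.5%, against 19.5%. The median log2 fold change was 0.01 over members and over all genes alike. The 95% interval lay within 2-fold in all 102 members and within 1.5-fold in 95.

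ZNF865 had the smallest adjusted p, with 4.49 and 4.21 FPKM in K56A, against 3.35 and 3.15 in WT, a log2 fold change of 0.37 ± 0.11 (SE) and an adjusted p of 0.244 in limma. ZNF787 had 8.94 and 8.87 FPKM in K56A, against 8.07 and 7.33 in WT, and ZNF358 had 7.38 and 6.82 in K56A, against 6.17 and 6.05 in WT. These 3 genes have GC contents of 71.1%, 70.2% and 68.4%, and lay above WT in both libraries. With the GC and length trends removed their log2 fold changes were 0.12 for ZNF865, -0.02 for ZNF787 and 0.0043 for ZNF358. ZNF57 and ZNF324B followed, at 0.32 and 0.26. ZNF224 had 16.6 and 16.3 FPKM in K56A, against 19.8 and 18.0 in WT, a log2 fold change of -0.19 ± 0.07 (SE). ZNF649, ZNF562, ZNF766 and ZNF577, all with GC contents between 42.8% and 45.8%, had log2 fold changes from -0.47 to -0.22. Without WT replicate 1 the value was -0.13 for ZNF224, -0.16 for ZNF562, -0.13 for ZNF577 and 0.12 for ZNF57, which had 0.51 without WT replicate 2. ZNF224 stood between the levels of the other groups in K56A, above EV and below WT, and passed in none of the 3 comparisons.

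**Figure D2:**
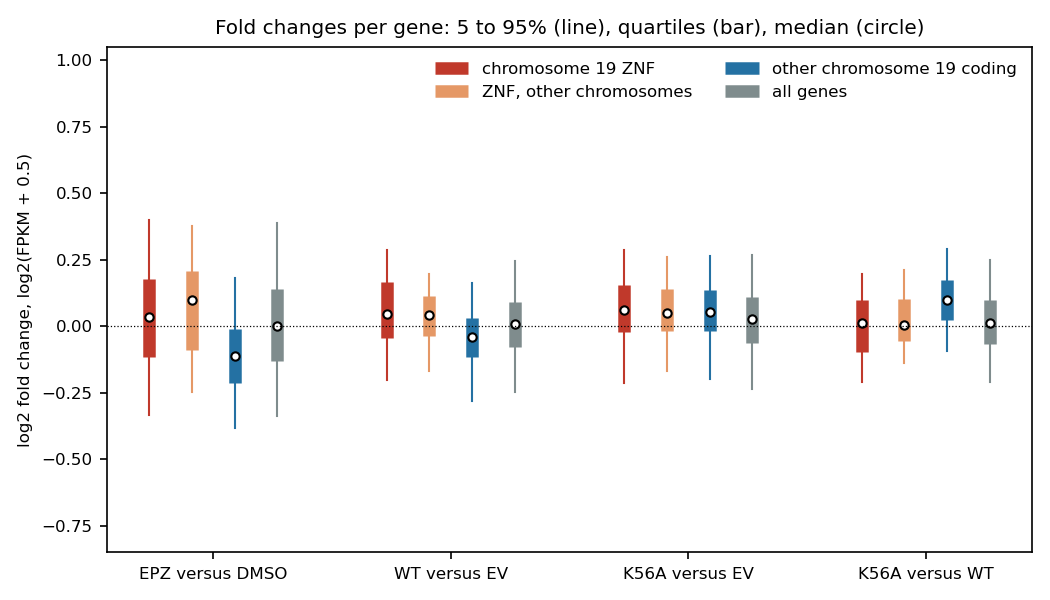
Log2 fold change per gene on the log2(FPKM + 0.5) scale in the 4 comparisons, for the chromosome 19 ZNF genes, the ZNF genes of other chromosomes, the other coding genes of chromosome 19 and all genes. Lines span 5 to 95% of genes, bars the quartiles and circles the medians; the medians of both ZNF sets lie above 0, while the median of the other genes of chromosome 19 lies at -0.11 with EPZ and at 0.10 in K56A versus WT.

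Members of high and low GC content had unlike median fold changes, least so in K56A versus EV. With EPZ, the 30 tested members of at least 50% GC had a median log2 fold change of -0.12 and 21 were below 0, whereas the 110 under 50% had a median of 0.07 and 67 were above 0. All genes split the same way, at -0.09 and 0.09. In K56A versus WT, the 23 GC-rich members had a median of 0.11 with 20 above 0, and the 79 others -0.03, beside 0.06 and -0.03 over all genes. In WT versus EV the medians were -0.03 and 0.10, beside -0.02 and 0.04 over all genes. In K56A versus EV the split was small among members, at 0.08 for the GC-rich and 0.06 for the others. All genes did split there, at 0.05 and 0.00. Each library's trend over GC content and transcript length was then removed. The medians of the GC-rich and the other members came to 0.04 and -0.01 with EPZ and to -0.02 and 0.01 in K56A versus WT. They came to 0.02 and 0.07 in WT versus EV and to 0.02 and 0.05 in K56A versus EV. GC content also moved with the library: DMSO replicate 1 was 0.16 (log2) below the gene mean for GC-poor members and 0.12 above it for GC-rich ones.

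**Figure D3:**
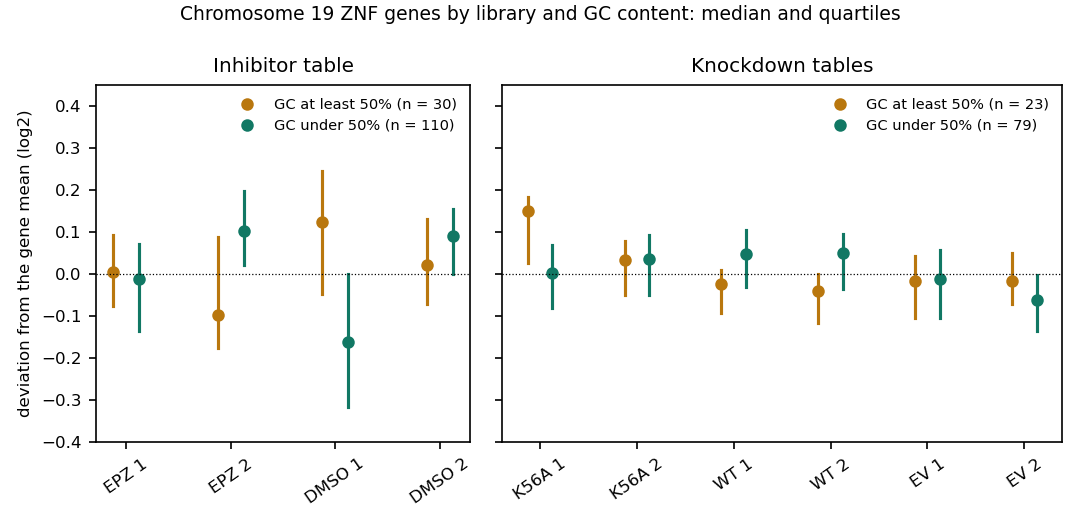
Deviation of each library from the gene's mean over the libraries of its experiment (log2), as the median (circle) and quartiles (line) over members with GC content of at least 50% and under 50%. DMSO replicate 1 has the widest gap between the classes, with medians of 0.12 and -0.16, and K56A replicate 1 has the highest GC-rich median of the knockdown libraries, 0.15.

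The genomic clusters differed in GC content, and a few of the 18 are described here. The part of GC content in their differences was not tested. Over all genes, 50.5% were above 0 with EPZ, 54.5% in K56A versus WT and 52.6% in WT versus EV. With the GC and length trends removed the shares were 50.4%, 50.5% and 52.0%. In the largest cluster, from ZNF264 to ZNF446, 15 of 30 tested members were above 0 with EPZ, with a median of 0.00. The GC-rich cluster from ZNF628 to ZNF444, at 55.5 to 56.2 Mb, has 9 members and a median GC content of 66.2%. All 9 had a log2 fold change below 0 with EPZ, with a median of -0.22, and 7 of the 8 tested were above 0 in K56A versus WT, with a median of 0.15. With the GC and length trends removed, 5 of the 9 were below 0 with EPZ and 2 of 8 above 0 in K56A versus WT, and the medians were -0.02 and -0.05. The members of this cluster are ZNF628, ZNF579, ZNF524, ZNF865, ZNF784, ZNF580, ZNF581, ZNF787 and ZNF444. ZNF580 and ZNF581 overlap on the same strand and share sequence, so their reads cannot be fully told apart. In the GC-poor cluster from ZNF175 to ZNF761, at 51.6 to 53.5 Mb, 15 of 17 tested members were above 0 in WT versus EV. Their median was 0.11, and with the trends removed 15 of 17 remained above 0, at 0.07. Of all tested members under 50% GC, 57 of 79 were above 0 there, and 52 of 79 with the trends removed. All members are read against the same EV libraries and some share sequence, so they are no separate replicates. The cluster from ZNF554 to ZNF77, at 2.82 to 2.94 Mb, has a median GC content of 46.5%. All 4 of its members were above 0 in K56A versus WT, with a median of 0.12, and 0.13 with the trends removed. With EPZ the median of the GC-poor cluster from ZNF85 to ZNF100 was -0.11, with 2 of 6 above 0. The tested members under 50% GC had a median of 0.07.

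**Figure D4:**
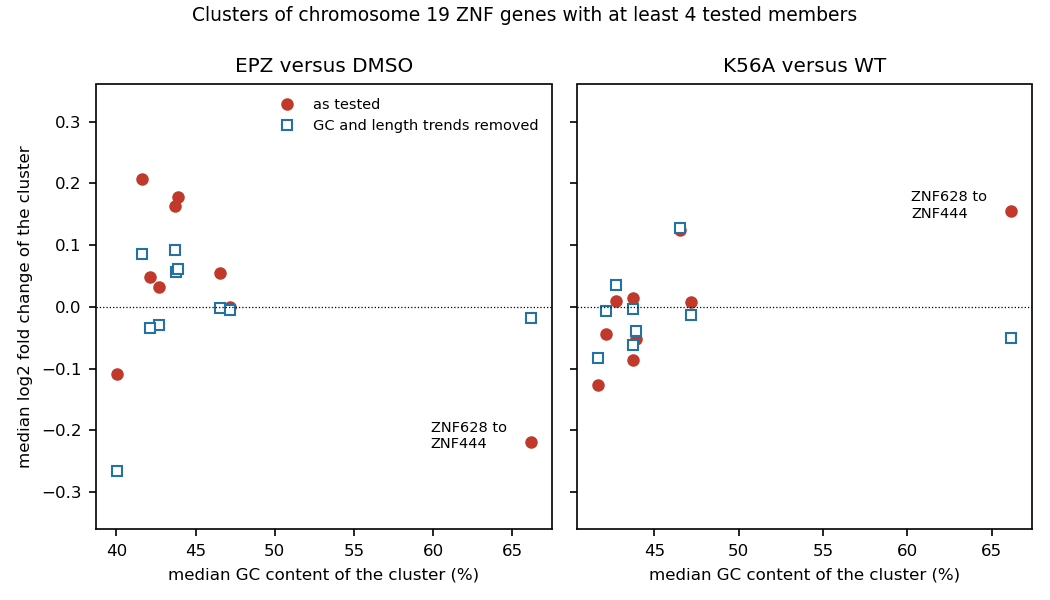
Median log2 fold change of each cluster with at least 4 tested members (vertical axis) against its median GC content in percent (horizontal axis), as tested (filled circles) and with GC and length trends removed (open squares). The cluster from ZNF628 to ZNF444 lies at -0.22 with EPZ and 0.15 in K56A versus WT as tested, and at -0.02 and -0.05 with the trends removed.

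The level of single members differed more between the experiments than within them. EV set beside DMSO gave a median ratio of 1.02 over the 142 members with at least 1 FPKM in either, and 0.943 over all genes, with 12 members over 2 (8.45%, against 12.1% of all genes) and 6 under 0.5 (4.23%, against 10.5%). The ratios were computed on FPKM + 0.5, across tables normalized separately and for lines that differ in more than the knockdown, so they carry no test. CDK9 had 16.4 and 19.4 FPKM in EV, beside 43.9 and 37.6 in DMSO, and DOT1L had 324 and 343 in EV, beside 12.6 and 12.5 in DMSO. ZNF738 had 7.39 and 7.07 FPKM in EV, beside 1.45 and 2.12 in DMSO. ZNF780B had 5.17 and 4.26 FPKM in EV, beside 0.696 and 1.51 in DMSO. ZNF121 had 35.8 and 32.5 FPKM in EV, beside 8.83 and 11.8 in DMSO, and ZNF460 and ZNF875 followed with ratios of 2.52 and 2.41. Each of these was also higher in all 4 other knockdown libraries than in both EPZ libraries.

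Fewer members were lower in EV. ZNF426 was the extreme case, with 0.113 and 0.113 FPKM in EV, 0.138 and 0.204 in K56A and 0.163 and 0.135 in WT, beside 2.19 and 1.86 in EPZ and 1.77 and 2.13 in DMSO. It lies between ZNF121 and ZNF266, and ZNF266 had 9.76 and 9.77 FPKM in EV, beside 7.82 and 7.03 in DMSO. ZNF468 had 2.40 and 2.28 FPKM in EV, beside 5.56 and 6.77 in DMSO. However, 58.7% of its 50-base stretches also occur in other genes, the most in ZNF320. ZNF28 had 3.82 and 3.13 FPKM in EV, beside 9.16 and 7.19 in DMSO, and ZNF416 and ZNF784 had ratios of 0.473 and 0.479. The share of member FPKM in transcripts of the retained intron class was 9.87 to 10.2% in the knockdown libraries and 5.45 to 5.85% in the inhibitor libraries, beside 9.90 to 10.5% and 6.20 to 6.48% over all coding genes. The part of that difference in the ratios was not tested.

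**Figure D5:**
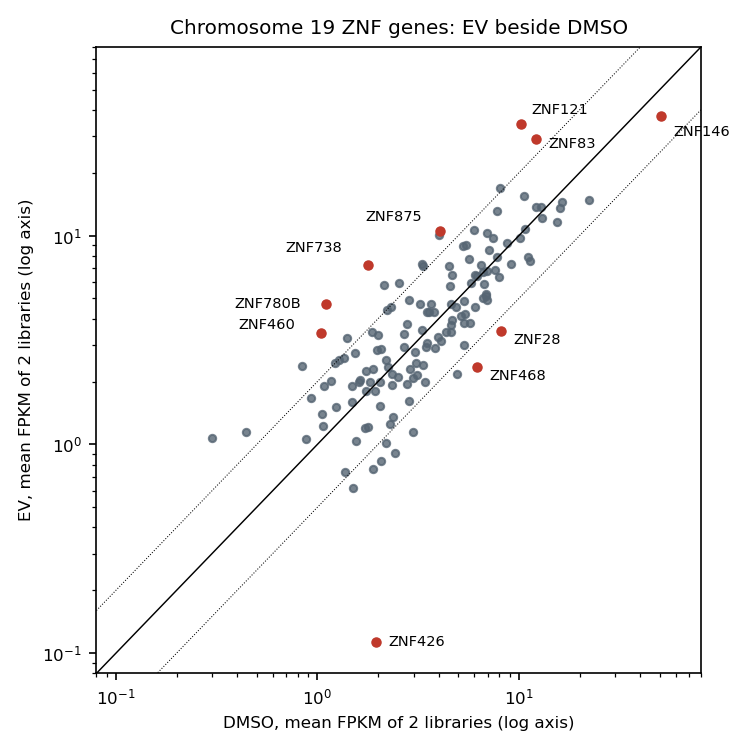
Mean FPKM of each chromosome 19 ZNF gene in EV (vertical log axis) against DMSO (horizontal log axis), 2 libraries each, for the 142 members with at least 1 FPKM in either. The solid line marks equal values and the dotted lines a 2-fold difference; ZNF738, ZNF780B and ZNF121 lie above, and ZNF426, at 0.113 FPKM in EV, far below.

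The partners of the family were measured alongside it. The list of the KRAB corepressor pathway holds 28 genes, of which 27 were tested with EPZ and 23 in the knockdown comparisons, and in limma none rose or fell in any of the 4. TRIM28, which KRAB domains bind, had 486 and 494 FPKM in K56A and 460 and 447 in WT, against 472 and 510 in EV. SETDB1, which adds the repressive histone H3 lysine methylation, had 19.4 and 18.6 FPKM in EPZ, against 20.6 and 18.7 in DMSO. The smallest adjusted p in that list was 0.218, for SUMO2 in K56A versus WT. Of 18 zinc finger genes of chromosome 19 with other names, 5 were tested in each comparison, ZBTB45 only with EPZ and ZFP14 only in the knockdown groups, and none rose or fell in limma.

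Other mRNAs known to decay quickly did pass in the knockdown comparisons. The list was chosen with earlier results of these data known, so its counts are no independent contrast with the zinc finger genes. Of 29 tested, 1 rose and 2 fell in WT versus EV, where 0.536% of all genes passed. In K56A versus EV 4 rose and 4 fell, where 0.787% of all genes passed, and in K56A versus WT 1 fell, where 0.0605% did. None of 32 passed with EPZ, where 0.00762% of all genes did. FOS, an immediate early transcription factor, had 235 and 221 FPKM in K56A, against 432 and 433 in EV, a log2 fold change of -0.92 ± 0.04 (SE) with an adjusted p of 2.94e-05 in limma. DUSP1, a phosphatase of MAP kinases, had 9.65 and 8.96 FPKM in K56A, against 18.1 and 18.6 in EV. DUSP5, a phosphatase of ERK, had 55.6 and 55.0 FPKM in WT, against 38.8 and 38.5 in EV, and MYC had 128 and 123 in K56A, against 104 and 106 in EV. The others that passed in K56A versus EV were ID1 at 0.39, GADD45A at 0.48, DUSP5 at 0.37, HES1 at -0.51 and JUN at -0.34 (log2 fold change). In WT versus EV, FOS had a log2 fold change of -0.26 and DUSP1 of -0.51, and in K56A versus WT, FOS had -0.67. MYC passed at a log2 fold change of 0.26 ± 0.04 (SE), where ZNF562, at a lower level, had -0.26 ± 0.09 (SE) and did not pass. The median SE over members was 0.13 in K56A versus EV.

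The authors' deposited tables give their own adjusted p-values per transcript. Their column names give edgeR for EPZ versus DMSO and DESeq2 for WT versus EV and K56A versus EV, so the rates come from unlike methods. A transcript is termed called where that adjusted p was under 0.05, a threshold set here and not by the authors. Called were 3 of 448 member transcripts with EPZ, 15 of 505 in WT and 8 of 524 in K56A. These made 0.670%, 2.97% and 1.53%, against 1.195%, 3.33% and 3.8001% of all transcripts. With EPZ 1 was higher and 2 lower, in WT versus EV 5 were higher and 10 lower, and in K56A versus EV 5 were higher and 3 lower, by the authors' deposited tables. Of these, 2, 9 and 6 were listed at 0 in both libraries of a group. In the authors' deposited table for WT and EV, transcripts of ZNF302 and ZNF266 that were listed at 0 in both WT libraries, and at 1.15 and 0.742 FPKM and at 1.30452 and 0.242 FPKM in EV, were called lower, while the summed level of either gene lay above EV in both WT libraries. In the same authors' deposited table a ZNF57 transcript was called lower, with 2.34 and 2.40 FPKM in WT, against 3.90 and 4.08 in EV. A ZNF146 transcript was called higher there, with 32.5 and 34.4 FPKM in WT, against 28.8 and 28.3 in EV, and an adjusted p of 0.0200 in the authors' deposited table.

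Of 12 colon and epithelial markers the tables list 9, all at 1 FPKM or more in every library. VIL1, CDX1 and LGALS4 are not listed, so no level can be given for them. Of 18 markers of other cell types the tables list 8, of which 2 were at 1 FPKM or more, or 3 in EV replicate 1. Of the epithelial markers, the claudin CLDN7 fell in WT versus EV, by 0.41 on the log2 scale, and in K56A versus EV, by 0.28. The summed level of the other cell types' markers was 30.6 to 34.8 FPKM in EPZ and 30.4 to 31.5 in DMSO, and 42.1 to 42.5 in K56A, 40.9 to 41.3 in WT and 36.4 to 37.7 in EV. The fibroblast marker COL1A1 had 23.1 and 19.8 FPKM in EPZ and 19.3 and 20.1 in DMSO. It had 36.2 and 34.5 FPKM in K56A, 34.1 and 33.1 in WT and 29.9 and 27.4 in EV. ACTA2, a marker of fibroblasts and muscle, had 11.3 and 10.5 FPKM in EPZ and 10.7 and 11.1 in DMSO. The liver marker ALB and the monocyte marker CD14 were at 0 in all inhibitor libraries. No listed marker of other cell types was at 0 in a knockdown library. The part of these differences in the values of the zinc finger genes was not tested. The share of FPKM from mitochondrially encoded genes was 25.3 to 27.8% in the knockdown libraries and 17.3 to 19.3% in the inhibitor libraries. Depth cannot be given, since the deposited values are FPKM alone.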

How the data were processed

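The authors deposited 3 tables of 4 libraries each with FPKM per transcript, for EPZ and DMSO, for WT and EV, and for K56A and EV. RSEM 1.3.3, STAR 2.7.1a, DESeq2 1.32.0, Trim Galore 0.6.6 and build GRCh38 are named in the submitters' processing notes. No source used here gives the annotation release or the strand setting, so reads of antisense neighbours may be mixed. Log2 fold changes and p-values per transcript also stand in the deposited tables. They were used here only to describe the transcripts with an adjusted p under 0.05. Another 4 summary columns were left unused.

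FPKM were summed per gene. The EV values of the K56A table and of the WT table differ by a constant factor (1.0007 and 1.0006), and the K56A libraries were multiplied by the mean factor. Knockdown sums used the 69086 transcripts that both tables list, and genes with more than 5% of their level in transcripts of a single table were not tested; for these members, all listed transcripts were summed for levels. Summed levels over the family used all listed transcripts. In both cases a transcript listed for only 1 of WT and K56A counted as 0 in the other, and EV kept its value. Genes that reached 1 FPKM in 2 libraries entered a limma fit with a trend of the variance on the level (limma 3.58.1 in R 4.3.3), on log2(FPKM + 0.5). Its two-sided p-values were corrected over all genes tested by the Benjamini-Hochberg method, with 0.05 as the threshold. EPZ versus DMSO used its 4 libraries, and the knockdown comparisons came from 1 fit of 6. Fold changes on this scale understate changes of low genes. The fit was tested on simulated data.

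GC content, length and shared 50-base stretches came from GENCODE v29 transcripts, matched by gene ID for 17583 of 18034 genes. Promoter windows came from RefSeq, matched by symbol. Summaries were made with pandas 2.3.3 and numpy 2.4.6 in Python 3.11.15, and plots with matplotlib 3.10.9. The alternatives were other scalings, pseudocounts and filters, coding transcripts only, all transcripts with unlisted ones at 0, no variance trend, only the 4 libraries compared, removal of GC and length trends, a replicate block, and each library left out. Named genes are the 10 most abundant members, the 5 smallest p-values per direction and comparison, the 5 highest and lowest EV to DMSO ratios, up to 4 genes per list, and members whose promoter is printed. Genes of a list that passed were all named. ZNF274, ZNF91, ZNF473, ZNF350, ZNF296, ZNF850, ZNF763, the members of 1 GC-rich cluster and the authors' transcripts of ZNF302, ZNF266, ZNF57 and ZNF146 were named outside that rule, in part after their values were seen. Motifs were searched on both strands. The members and lists were chosen with earlier results of these data known. 1 gene of the KRAB corepressor list is not reported here.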

Additional observations from a re-analysis of the deposited data

How the results depend on the processing

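The count of members that passed and the median log2 fold change were recomputed under each alternative in the 4 comparisons; 116 of these values stayed at their count or within the spread between replicates, and 5 moved. With 1 library left out, 0 to 11 members passed for EPZ versus DMSO, the 11 without DMSO replicate 2, and none passed in the knockdown comparisons. Over the same omissions the median log2 fold change of members ranged from -0.06 to 0.13 for EPZ versus DMSO and from 0.031 to 0.091 for WT versus EV, the highest without EV replicate 1 and 0.07 without WT replicate 1. A group left with 1 library is assumed there to vary like the other groups. With median-ratio scaling the K56A versus EV median was 0.042, and with protein_coding transcripts only the K56A versus WT median was -0.0087. No named member passed at first, and of 657 recomputed values 1 changed direction, but 30, in 22 of 40 results, moved by over 1.5 times, 6 with GC and length trends removed and 6 with protein_coding transcripts only; ZNF787 in K56A versus WT turned to -0.024 with GC and length trends removed, and ZNF302 and ZNF225 passed with EPZ without DMSO replicate 2, at 0.92 and 0.78. Under the replicate block 0 members passed in each comparison. Replicate numbers were not taken to pair the libraries, since deviations of same-numbered libraries correlated over genes at 0.24 for EPZ and DMSO, with 2 pairs only, and between -0.03 and 0.03 among the knockdown groups.

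The limits are 2 libraries a group, unknown depth and low levels: in EPZ versus DMSO the interval reached beyond a 1.5-fold change in most members.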
